A study of Mus musculus with 15 samples.

Results

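Keratins are the intermediate filament proteins of epithelial cells, and 48 keratin genes were measured among 18193 measured genes in 15 mouse cell lines. The members are all genes whose platform symbol is Krt followed by a number, with or without a letter, and each gene is read by its brightest probe set (a group of short probes for 1 transcript) over the 15 lines. They were covered by 61 probe sets, and 39 genes had 1 probe set. The series comes from genetically engineered mouse models, per its title. Of the lines, 3 carry the genotype label AP and 12 the label AKP, 1 array per line (the design text counts 10 AKP lines), grown without treatment in DMEM with 10% FBS. The genotype letters are not spelled out in the labels, which name no tissue, promoter or Cre and give no age. All AP lines and 11 AKP lines are labelled as tumour and 1, AKP 6, as adenoma, a benign growth, and 10 lines are labelled female and 5 male. A pair number stands in the labels of 7 AKP lines and 1 AP line, so some lines may not be independent, and the main fit does not use it. The labels do not say whether lines came from separate animals, so p-values measure only the spread between these lines.

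Keratin filaments form from pairs of an acidic type I and a basic type II keratin, and a keratin without a partner is usually broken down. Krt8 (type II) and Krt18 (type I) are the founding pair of simple epithelium, the single-layered lining of gut and glands, where Krt7, Krt19, Krt20 and Krt23 join them in some tissues. Stratified epithelium uses Krt5 with Krt14 in its basal layer and Krt1 with Krt10 or Krt4 with Krt13 above it, while hair and nail are built of hard keratins. Of the members 25 were type I and 23 type II. In the mouse genome (GRCm38.p6) 24 lie on chromosome 11 and 24 on chromosome 15, where Krt18, a type I gene, lies next to Krt8 with 0 protein-coding genes between them.

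Values are the deposited log2 values, so a difference of 1 is a doubling of signal. Array medians lay between 3.91 and 4.17. Values crowd below 3, where each array had 35.9% to 39.5% of its probe sets. Levels below about 4 are therefore not told from background, and a gene is counted here in a line where it lay above 8. Over all genes, pairs of lines correlated at 0.874 to 0.980. AP 1 and AKP 1 stood furthest from the other lines, with the lowest medians over their pairs, 0.892 and 0.922. Of 10 fibroblast and smooth muscle markers, 8 lay above 8 in AP 1, 8 in AKP 1 and 6 in AKP 8, against 0 to 4 in the other lines. Their summed level (log2) ran from 11.41 to 17.56 in AP lines and from 8.28 to 15.98 in AKP lines, highest in AP 1 and AKP 1, and the collagen-binding proteoglycan gene Lum stayed at 3.02 or lower in all AP lines and at 2.38 in AKP 1. Of 6 blood cell markers 1 or 2 lay above 8 in each line. They were Cd14 in all lines (8.66 to 12.67), Cd68 in some AKP lines (up to 10.94 in AKP 1) and Lyz2 in AP 1 (8.61), while Ptprc stayed at 3.10 or lower. Of 4 endothelial markers 0 lay above 8, with Tek at 7.98 in AP 1, Cdh5 at 7.13 in AP 2, Kdr at up to 7.30 and Pecam1 at 3.40 or lower. The summed level (log2) of the blood list was 9.74 to 12.69 in AP and 9.81 to 11.37 in AKP lines, and that of the endothelial list 5.92 to 8.24 and 5.27 to 7.52. Of 4 mesothelial markers only Msln lay above 8, at 9.44 to 14.17 in every line but AP 1 (3.14). Upk3b, Wt1 and Lrrn4 stayed at 4.99 or lower. The summed level (log2) of that list was 4.94 to 13.75 in AP and 9.48 to 14.17 in AKP lines.

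Of the 48 keratins, 15 lay above 8 in at least 1 line, 9 reached between 4 and 8, and 24 never passed 4, with a highest value of 3.75. All 6 simple-epithelium keratins passed 8 in some line, and so did 5 of 12 suprabasal, mucosal and corneal keratins, 3 of 11 hair shaft keratins and 1 of 3 basal keratins. None of the 7 inner root sheath keratins, 6 stress and appendage keratins or 3 other keratins did. The number above 8 ran from 0 in AP 1 to 10 in AKP 3. AKP 1 had 4, AKP 8 and AKP 12 had 5 each, AKP 4 and AKP 11 had 9 each, and the other lines had 6 to 8. Expressed keratins varied widely between lines. The range over the 15 lines was at least 4 on the log2 scale in 14 of the 15 keratins above 8, all but Krt10, and their median range was 7.81. Over all 10145 genes above 8 in some line, 26.4% had such a range and the median range was 2.31.

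**Figure D1:**
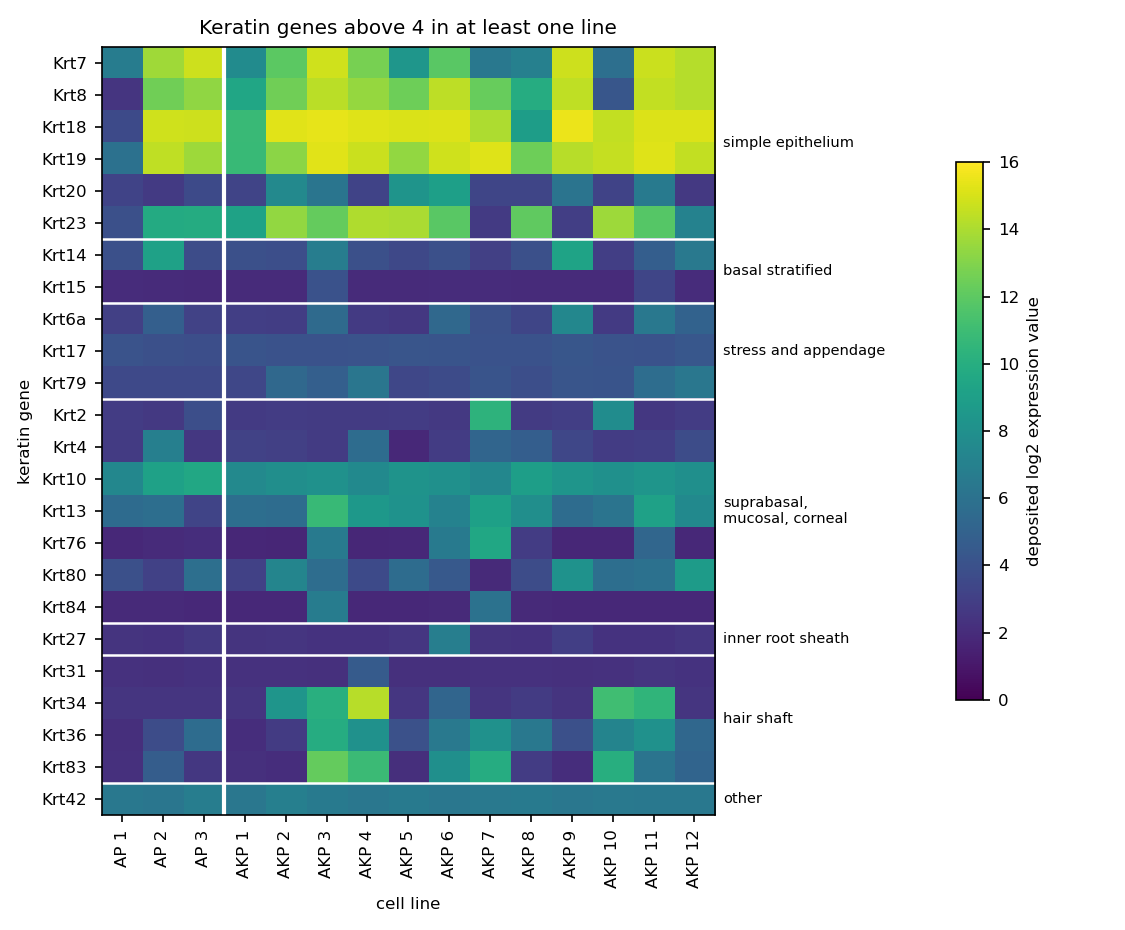
Colour gives the deposited log2 value of each keratin above 4 in at least 1 line (vertical axis, grouped by role) in each of the 15 cell lines (horizontal axis, AP lines left of the white bar). Krt18 and Krt19 are bright in all lines but AP 1, Krt8 is dark in AP 1 and AKP 10, and the hair shaft keratins are bright in part of the AKP lines.

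The promoters of pairs of genes discussed below, from 250 bases before to 50 after the RefSeq start (GRCm38.p6), are shown first. They are given for Krt8 (chr15:102004293-102004592, minus strand) and its neighbour Krt18 (chr15:102027966-102028265, plus strand), which were high together in 13 lines, and for the hair keratins Krt34 (chr11:100041505-100041804, minus strand) and Krt36 (chr11:100105577-100105876, minus strand). Capitals mark matches to TATAAA, the TATA box, on either strand.
Krt8: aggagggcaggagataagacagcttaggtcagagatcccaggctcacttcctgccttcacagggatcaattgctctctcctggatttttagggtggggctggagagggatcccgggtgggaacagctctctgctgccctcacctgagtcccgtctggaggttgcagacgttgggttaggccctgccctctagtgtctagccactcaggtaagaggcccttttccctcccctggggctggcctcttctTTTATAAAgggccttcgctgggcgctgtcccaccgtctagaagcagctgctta
Krt18: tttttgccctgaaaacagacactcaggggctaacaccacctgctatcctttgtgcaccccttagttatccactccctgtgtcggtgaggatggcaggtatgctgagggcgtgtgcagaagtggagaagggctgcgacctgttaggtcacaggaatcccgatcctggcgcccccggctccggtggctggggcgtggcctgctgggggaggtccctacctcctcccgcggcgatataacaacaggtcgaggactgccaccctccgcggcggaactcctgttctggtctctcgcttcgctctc
Krt34: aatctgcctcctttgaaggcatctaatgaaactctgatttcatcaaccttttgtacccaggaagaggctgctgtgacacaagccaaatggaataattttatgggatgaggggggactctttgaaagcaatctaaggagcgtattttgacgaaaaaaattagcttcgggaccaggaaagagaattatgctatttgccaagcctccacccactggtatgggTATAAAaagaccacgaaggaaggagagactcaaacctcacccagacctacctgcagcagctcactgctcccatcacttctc
Krt36: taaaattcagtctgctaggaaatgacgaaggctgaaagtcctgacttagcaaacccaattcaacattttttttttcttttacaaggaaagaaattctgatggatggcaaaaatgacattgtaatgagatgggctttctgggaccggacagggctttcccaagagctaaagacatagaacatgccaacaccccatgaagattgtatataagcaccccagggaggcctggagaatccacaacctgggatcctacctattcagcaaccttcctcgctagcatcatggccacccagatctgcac
Promoters were found for 32 of the 48 members. TATAAA occurred in 18 of the 33 promoters of these genes, 54.5%, against 13.6% of all 32841 promoters of the same length. In Krt34 it began 31 bases before the start and in Krt8 1 base before it, where it overlaps a match on the other strand, and these letters are not in the Krt18 and Krt36 windows. The other 3 motifs were searched on both strands in the same windows. The GC box GGGCGG occurred in 2 of the 33 keratin promoters and in 35.7% of all promoters, the AP-1 motif TGANTCA in 2 and in 7.81%, and the TCF/LEF motif CTTTGAT in 1 and in 3.73%. A match describes these letters only.

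Krt18, the type I keratin of simple epithelium, was near the top of the scale in most lines. It lay at 3.62, 14.86 and 14.78 in AP 1, AP 2 and AP 3, and the AKP lines ran from 8.93 in AKP 8 to 15.52 in AKP 9 with a median of 15.15. Most lines thus lay close together, and AP 1, AKP 8 and AKP 1 (10.82) lay below them. Krt19, a type I keratin of simple and ductal epithelium, lay at 5.97, 14.48 and 13.67 in the AP lines and from 10.76 in AKP 1 to 15.30 in AKP 3, with an AKP median of 14.55. Krt18 and Krt19 were above 8 in the same 14 lines, all but AP 1.

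Krt8, their type II partner, lay at 2.46, 12.51 and 13.36 in AP 1, AP 2 and AP 3. In AKP lines it ran from 4.27 in AKP 10 to 14.56 in AKP 11, with a median of 12.98. AKP 10 therefore stood far below every other AKP line, of which the next lowest was AKP 1 at 9.49, while its Krt18 (14.55) and Krt19 (14.58) were at the level of the other lines. The low value of AKP 10 was seen in all 3 Krt8 probe sets, which read 4.27, 2.41 and 2.33 there, against 8.68 or more in every other AKP line. In AP 1 they read 2.46, 2.05 and 2.42, with Krt18 and Krt19 low as well. Krt8 and Krt18 were thus above 8 together in 13 lines, Krt18 without Krt8 in 1 line, AKP 10, and Krt8 without Krt18 in 0 lines. The only type II keratin above 8 in AKP 10 was Krt83, a hair shaft keratin, at 10.00, and the epidermal keratin Krt2 followed at 7.76 and Krt7 at 5.86. The line had 5 type I keratins above 8 (Krt10, Krt18, Krt19, Krt23 and Krt34). Of the fibroblast and smooth muscle markers 2 of 10 lay above 8 in AKP 10, with a summed level of 10.80, inside the range of the other AKP lines. In AP 1, AKP 1 and AKP 8, where Krt8 and Krt18 were also low, 6 to 8 of those markers lay above 8. By summed level AKP 7 (14.67), with Krt18 at 14.01 and Krt8 at 12.28, lay above AKP 8 (14.03), and AP 2 (13.82) and AKP 3 (13.56) lay close below it. The part of these markers in the keratin levels was not tested. In bulk RNA, fewer cells of a type and less RNA per cell cannot be told apart.

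**Figure D2:**
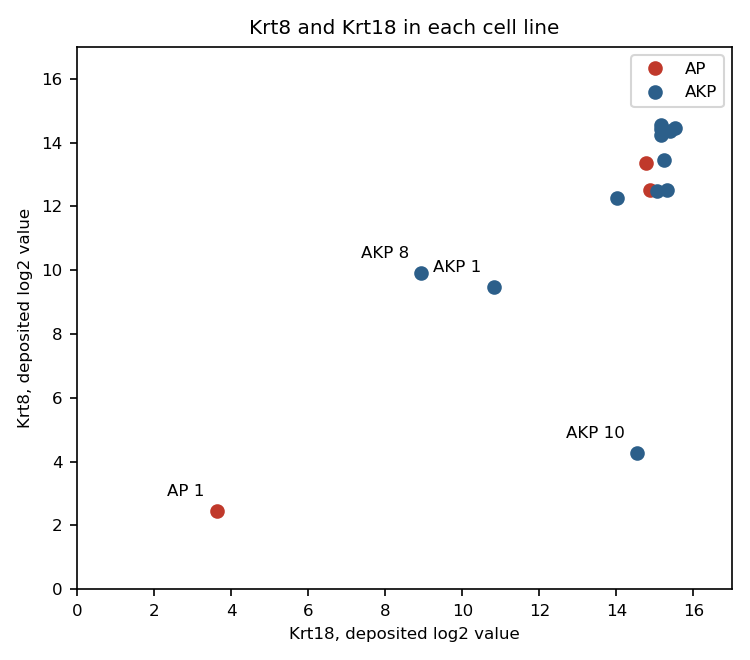
Each point is 1 cell line, placed by its deposited log2 value of Krt18 (horizontal) and Krt8 (vertical), red for AP and blue for AKP. AP 1 is low in both, AKP 1 and AKP 8 are intermediate in both, and AKP 10 has Krt18 at 14.55 with Krt8 at 4.27.

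Krt7, a type II keratin of ducts and some simple epithelia, split the lines more evenly. It lay at 6.74, 13.73 and 14.78 in the AP lines and from 5.86 in AKP 10 to 14.86 in AKP 3, with a median of 11.94. It was above 8 in 10 lines, all of which also had Krt8 above 8, and below 8 in AP 1, AKP 1 (7.73), AKP 7 (6.43), AKP 8 (6.98) and AKP 10. The level of Krt8 in AKP 7, at 12.28, shows that the lines low in Krt7 were not all low in Krt8.

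Krt23, a type I keratin of simple epithelium, lay at 3.88, 9.75 and 9.82 in the AP lines. AKP lines ran from 2.72 in AKP 7 and 2.98 in AKP 9 to 14.10 in AKP 4, with a median of 11.98. It was on the floor in lines with bright Krt18 and Krt19 and was above 8 in AKP 1, so its pattern was not that of Krt18. Krt20, a type I keratin of mature cells of the gut lining, lay at 3.24, 2.70 and 3.57 in the AP lines, and in AKP lines from 2.67 in AKP 12 to 9.02 in AKP 6, with a median of 4.75. Only AKP 5 (8.29) and AKP 6 passed 8, AKP 2, AKP 3, AKP 9 and AKP 11 lay between 6.13 and 7.53, and the other AKP lines lay with the AP lines.

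**Figure D3:**
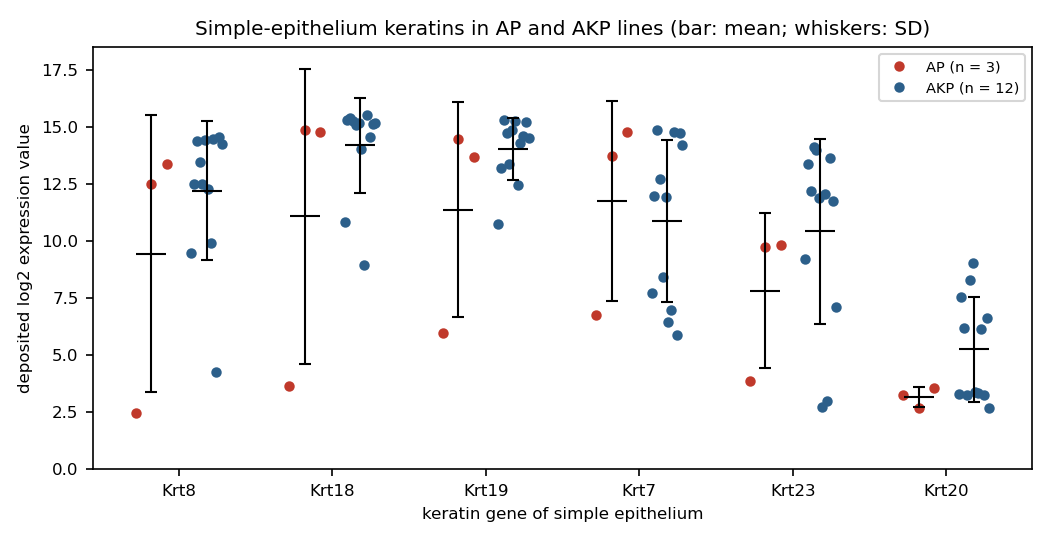
Points give the deposited log2 value (vertical axis) of 6 simple-epithelium keratins in the AP (red, n = 3) and AKP (blue, n = 12) lines, with bars for the mean and whiskers for the SD. The AP spread of Krt8, Krt18 and Krt19 comes from 1 low line, AP 1, and Krt7 and Krt23 are spread widely within AKP.

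Of 11 hair shaft keratins, hard keratins of the hair fibre, 3 were bright in part of the AKP lines and in 0 AP lines. Krt34 (type I) lay at 2.48, 2.47 and 2.48 in the AP lines. Among AKP lines it was above 8 in AKP 2 (8.32), AKP 3 (10.07), AKP 4 (14.31), AKP 10 (11.09) and AKP 11 (10.50), lay at 5.20 in AKP 6 and did not exceed 2.80 in the remaining 6. It was thus either on the floor or well above it, with little between. Krt83 (type II) lay at 2.24, 4.72 and 2.59 in the AP lines and was highest in AKP 3 (12.23), AKP 4 (10.91), AKP 10 (10.00) and AKP 7 (9.89). AKP 6 (7.99), AKP 11 (6.17) and AKP 12 (5.13) were intermediate, and the remaining AKP lines did not exceed 2.82. The bright lines of Krt83 and Krt34 overlapped in part.

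Krt36 (type I) lay at 2.18, 3.74 and 5.64 in the AP lines and ran from 2.11 in AKP 1 to 9.88 in AKP 3, with an AKP median of 6.43. It passed 8 in AKP 3, AKP 4 (8.07), AKP 7 (8.08) and AKP 11 (8.10), all but the first just above that level. In all, 6 of 12 AKP lines had at least 1 of these 3 keratins above 8, with all 3 in AKP 3 and AKP 4, 2 of them in 3 lines and 1 in AKP 2. These 3 were taken because they passed 8 in some line, and only AKP lines did so. Their absence above 8 from the 3 AP lines is therefore no separate result. The share of all genes with such a pattern was not counted. The other keratins counted here as hair shaft did not follow. Krt84, counted here with the suprabasal, mucosal and corneal keratins, reached 6.70 in AKP 3 and 6.02 in AKP 7. Both of those lines had Krt36 and Krt83 above 8. Krt31, of the hair cortex, reached 4.59 in AKP 4 and at most 2.45 elsewhere. Krt32, Krt33a, Krt33b, Krt35, Krt81, Krt82 and Krt86 stayed at 3.17 or lower in all 15 lines. Hard keratins are close in sequence, and whether a probe set also reads a close relative was not tested.

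**Figure D4:**
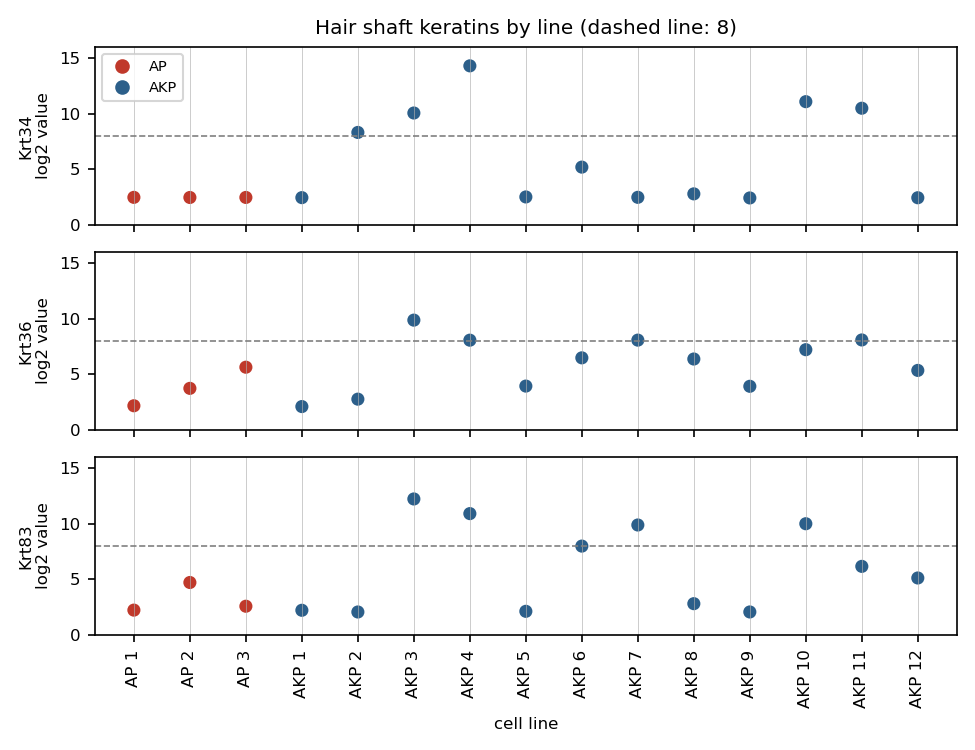
The deposited log2 values of Krt34, Krt36 and Krt83 (vertical axes) are shown in each cell line (horizontal axis), red for AP and blue for AKP, with a dashed line at 8. AKP 3 and AKP 4 pass the line in all 3 panels, and the AP lines stay at 5.64 or lower.

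Keratins of stratified epithelium appeared in a few lines without a full set of partners. Krt14, the type I keratin of basal cells, was above 8 in AP 2 (9.17) and AKP 9 (9.27) and lay between 2.97 and 6.80 elsewhere. Its probe sets disagreed in size: the second read 6.12 and 6.35 in those lines and at most 2.60 in the others, and the third stayed at 2.14 or lower. Krt5, the usual type II partner of Krt14, stayed at 3.75 or lower in every line, and Krt15, another basal keratin, reached 4.02 in AKP 3 and 3.37 in AKP 11. Krt6a, a type II keratin of wounded and proliferating epithelium, was highest in AKP 9 (7.39) and AKP 11 (6.42), while its partner Krt16 stayed at 3.15 or lower and Krt17 between 3.86 and 4.35. The other 2 Krt6a probe sets reached 4.18 and 2.61. Krt79, of the hair canal, reached 6.31 in AKP 12 and 6.26 in AKP 4 and lay at 3.54 or lower in the AP lines.

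Krt10, a type I keratin of the upper epidermis, was present at a middle level throughout, from 7.41 to 9.56, the narrowest range of the 15 bright keratins. Its epidermal partner Krt1 stayed at 2.66 or lower. Krt2, a type II keratin of the upper epidermis, was above 8 in AKP 7 (10.32) and lay at 3.81 or lower in all lines but that and AKP 10. Krt76, of the oral lining, was also highest in AKP 7 (9.53), followed by AKP 3 (6.58), AKP 6 (6.57) and AKP 11 (5.28), and did not exceed 2.87 elsewhere. Krt84 reached 6.70 in AKP 3 and 6.02 in AKP 7 and did not exceed 1.90 elsewhere. AKP 7 thus combined Krt2, Krt76 and Krt84 with a floor value of Krt23 and the lowest Krt80 of all lines, 1.89.

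Krt13, a type I keratin of the mouth and gullet lining, was above 8 in AKP 3 (10.79), AKP 11 (9.18), AKP 7 (9.07), AKP 4 (8.55) and AKP 5 (8.18). The other 2 Krt13 probe sets reached only 3.59 and 3.50, both in AKP 3, so the probe sets of Krt13 disagree on level. Krt4, its type II partner, was highest in AP 2 (6.93). In the lines with Krt13 above 8 it lay at 5.67 in AKP 4, 5.23 in AKP 7, 2.95 in AKP 11, 2.80 in AKP 3 and 1.85 in AKP 5. Krt80, a type II keratin found in many epithelia, was above 8 in AKP 12 (8.80) and AKP 9 (8.14). Krt42 lay between 6.29 and 6.92 in every line by its brighter probe set and at 3.57 or lower by the other.

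Setting AKP against AP lines asks whether keratin expression goes with the genotype label. Limma called 0 of the 48 keratins (adjusted p under 0.05 over all genes), against 1.9% of all genes, of which 0.792% were higher and 1.1% lower in AKP. At an unadjusted p under 0.05 there were 3 keratins, 6.25%, against 16.5% of all genes. That gap depended on the settings. With each array centred on its median the shares were 22.9% of keratins against 22.8% of all genes, and with quantile normalization 14.6% against 17.3%. Without AP 1 they were 18.8% against 17.3%, and with array weights 2.08% against 8.52%. A test per gene with unequal variances called 0 keratins and 0.995% of all genes. The AP and AKP values did not overlap in 0 keratins, against 2.13% of all genes. The median log2 difference (AKP minus AP) was 0.084 over the keratins and 0.012 over all genes, and 33 keratins (68.8%) had the higher mean in AKP, against 52.8% of all genes. Of the 33, 14 never passed 4 in any line.

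The lowest p among keratins was that of Krt13, at 5.59, 5.78 and 3.30 in the AP lines and from 5.67 to 10.79 in the AKP lines with a median of 7.74. The log2 difference was 2.75 ± 0.99 (SE; limma adjusted p = 0.19), with 9 of the 12 AKP lines above all AP lines. With the mean of its 3 probe sets the difference was 1.00, and with the dimmest 0.17. Krt18 differed by 3.10 ± 1.98 (limma adjusted p = 0.48), Krt8 by 2.76 ± 2.29 (0.61) and Krt19 by 2.67 ± 1.39 (0.36). These differences rest on AP 1. Without it they were -0.63 for Krt18, -0.73 for Krt8 and -0.04 for Krt19, and the sign turned for all 3. Krt34 differed by 3.74 ± 2.50 (limma adjusted p = 0.50), Krt83 by 2.95 ± 2.27 (0.57) and Krt36 by 2.17 ± 1.45 (0.50), and in these genes 3, 4 and 1 AKP lines lay below all AP lines. Krt23 differed by 2.60 ± 2.48 (limma adjusted p = 0.67), Krt20 by 2.07 ± 1.32 (0.48), Krt76 by 1.66 ± 1.54, Krt80 by 1.04 ± 1.24 and Krt2 by 0.71 ± 1.44. Without AP 1 the difference of Krt23 was 0.63 and that of Krt36 1.33. That of Krt80 was 0.45 without AP 2 and 1.83 without AP 3, and that of Krt2 was 0.12 without AKP 7 and 0.36 without AKP 10. Krt7 differed by -0.87 ± 2.30 (limma adjusted p = 0.89) and Krt14 by -0.91 ± 1.32 (0.79). Without AP 2 both turned sign, to 0.12 and 0.87, and Krt7 also did without AP 3 (0.65). Without AP 1 they were -3.37 and -1.76, and without AP 3 Krt14 was at -1.85. Krt17 (0.16 ± 0.08), Krt78 (-0.18 ± 0.07) and Krt73 (-0.12 ± 0.05) were among the lowest p-values in their direction, with all their values at 4.35 or lower.

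Krt10 lay at 7.41, 9.17 and 9.56 in the AP lines and from 7.41 to 8.98 in the AKP lines, with a median of 8.06. Its difference was -0.67 ± 0.37 (SE; limma adjusted p = 0.40) with all lines. Without AP 1, whose value lay at the lower end of the AKP lines, it was -1.32 ± 0.31 and passed (limma adjusted p = 0.046), as 1 of 48 keratins beside 2.17% of all genes called and 1.45% called lower. Over all alternatives its adjusted p ran from 0.046 to 0.94 (limma). It also passed without AP 1 and AKP 1 together, at -1.27 ± 0.30 (limma adjusted p = 0.047), where 2.76% of all genes did, 1.83% lower. The authors' deposited table of their own AKP and AP comparison lists 0 keratins among its 501 entries. Keratins are 48 of the 18193 measured genes, so few would stand among that many entries, and the 0 is no separate result.

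**Figure D5:**
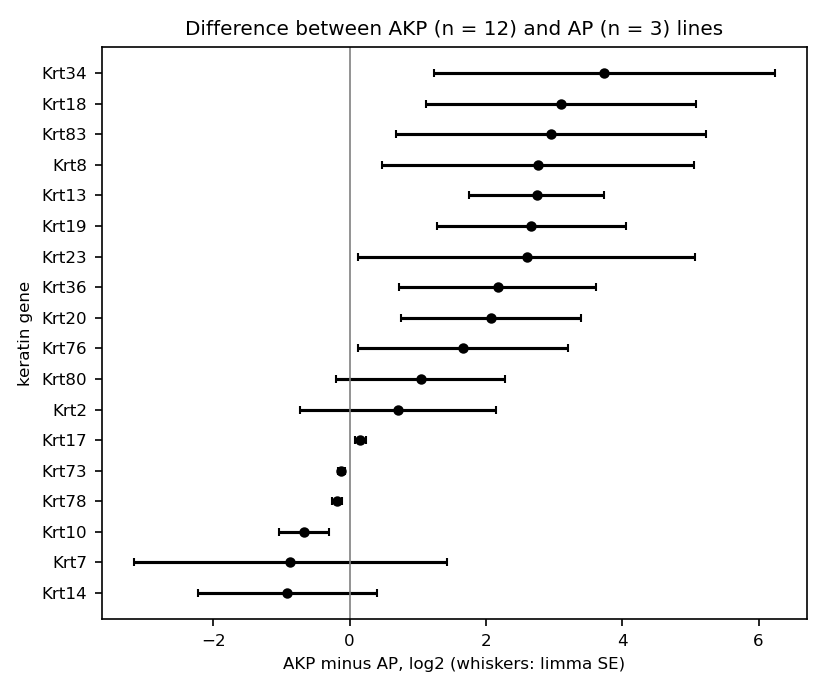
Points give the log2 difference AKP minus AP (horizontal axis) of the keratins above 8 in some line and of those with the lowest p in each direction (vertical axis), with whiskers for the limma SE (12 AKP and 3 AP lines). The whiskers of the bright keratins are wide, up to 2.50 for Krt34, and none of the genes passed the threshold.

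Genes that work with keratins were read from 4 lists. Of 12 keratin anchors, 0 were called, beside 1.9% of all genes, and their median difference was 0.48. At that share lists this short may hold 0 calls, so the counts alone say little. Dsp, desmoplakin, which ties keratin filaments to desmosomes, lay at 3.73, 12.72 and 10.41 in the AP lines and between 8.92 and 14.65 in the AKP lines. Its difference was 4.09 ± 1.42 (SE; limma adjusted p = 0.17), and that of Tchp, a keratin-binding protein, was -0.45 ± 0.30. Of 15 other intermediate filament genes 0 rose and 1 fell, Ina, a neuronal filament protein, between the low means of 4.05 and 3.50 (limma adjusted p = 0.042), beside 1.1% of all genes called lower, and the median was 0.09. This call and that of Sprr3, given next, were both lost with median centring, quantile normalization, unequal variances or sex as a covariate. Both were also lost without AP 3, and without any 1 of AKP 2, AKP 3, AKP 4, AKP 6, AKP 7, AKP 10, AKP 11 or AKP 12. A filter on dim genes left both out of the test. Vim, the filament protein of mesenchymal cells, was above 14 in every line, from 14.14 in AP 3 to 16.39 in AKP 8, at a difference of 0.67 ± 0.29 (limma adjusted p = 0.26). Bright keratins and bright Vim were thus measured in the same lines.

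Of 13 measured squamous differentiation genes 0 rose and 1 fell, beside 0.792% of all genes called higher and 1.1% called lower. That was Sprr3, between means of 2.53 and 2.12 on the floor (limma adjusted p = 0.040), a call lost under the same settings. The median difference of the list was -0.11. Ivl, a cornified envelope protein, lay at 3.65, 7.62 and 11.73 in the AP lines and at 8.21 or lower in the AKP lines (-3.78 ± 1.40, limma adjusted p = 0.20). Of 16 genes of epithelial identity and its regulators 0 were called, beside 1.9% of all genes, with a median of 0.11. Klf5, a transcription factor of gut and basal epithelium, lay at 2.74, 12.59 and 12.86 in the AP lines and between 11.05 and 14.03 in the AKP lines (3.80 ± 1.49, limma adjusted p = 0.22), and the adhesion molecule gene Epcam differed by -0.80 ± 0.30 (0.21). Most of these 16 genes were lowest of the AP lines in AP 1, but not all. That held for Klf5, Cdh1 (3.70), Cldn4 (1.92), Cldn7 (2.31), Elf3 (2.81), Ehf (2.66), Grhl3 (1.92), Esrp1 (2.53), Esrp2 (5.25) and St14 (2.17), and also for Dsp. Epcam (9.82), Klf4 (11.28) and the dim Ovol1 (3.44) and Ovol2 (2.55) were the highest of the AP lines there. Grhl1 and Grhl2 lay between the other AP lines.

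The sex labels and the adenoma label give the remaining contrasts. Some lines go against their sex label: the Y-linked gene Eif2s3y was above 8 in 2 lines labelled female (AP 3 and AKP 11) and was not in AKP 5, labelled male, and Xist lay below 4 in 3 lines labelled female (AP 3, AKP 2 and AKP 11). With genotype as a covariate, limma called 0 of 48 keratins and 0% of all genes between lines labelled female and male. At an unadjusted p under 0.05 there were 0 keratins and 574 genes (3.16%). Krt8 had the lowest p among keratins, with means of 12.96 in lines labelled female (n = 10) and 9.03 in lines labelled male (n = 5), a group that holds both AP 1 and AKP 10 (difference 3.54 ± 1.91). The genotype difference did not pass as different between the sexes for any keratin (0 called by limma against 2.01% of all genes, and 3, or 6.25%, at an unadjusted p under 0.05 against 11.4% of all genes), a test that rests on 1 AP line labelled female.

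AKP 6, the adenoma-labelled line, is a single line with no replicate check. It lay over 1 on the log2 scale outside the range of the other 11 AKP lines in 1 keratin, beside 0.225% of all genes. That was Krt27, a type I keratin of the hair's inner root sheath, at 6.82 against 2.96 in the next highest AKP line and 2.64 or lower in the AP lines. The same count was 0 to 3 keratins when each other AKP line was taken in its place. It was 3 in AKP 3 (Krt13, Krt36 and Krt83), beside 0.566% of all genes, and 3 in AKP 7 (Krt2 and Krt76 above and Krt80 below), beside 1.32%. In AKP 10 it was 1, Krt8, which lay 5.21 below the next lowest AKP line, beside 0.66% of all genes. In AKP 4 it was 2, Krt31 and Krt34, the latter 3.22 above the next AKP line, beside 0.704%. It was 1 in AKP 1 (Krt19 below, beside 4.4%), AKP 8 (Krt18 below, beside 2.33%) and AKP 9 (Krt14 above, beside 0.786%). In AKP 2, AKP 5, AKP 11 and AKP 12 it was 0, beside 2.86%, 0.528%, 0.363% and 0.687% of all genes.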

How the data were processed

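RNA of 15 mouse lines was measured on Affymetrix expression arrays, per the design text. The deposited value table holds log2 values per probe set; its scale is log2 because, in the authors' table, the linear ratio and the signed fold score follow the log2 differences. For background correction, summarization and scaling the sources used here give nothing, and no detection calls were used. The authors' deposited table of their own comparison (p-values, t scores, log2 means and ratios) was used only to look up which symbols it lists. From 45101 probe sets 64 controls were left out; 34945 of the 45037 kept name 1 gene, 932 several (1 of them Krt17 and Krt14, at most 2.15 in any line, not used) and 9160 none listed. By Entrez identifier all 48 keratins matched RefSeq, GRCm38.p6, and 0 changed symbol. Promoter sequences are from RefSeq, GRCm38.p6.

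Groups came from the title labels. Limma 3.58.1 in R 4.3.3 (lmFit, eBayes, two-sided, no covariate) was fitted over 18193 genes and p-values were adjusted by Benjamini-Hochberg (threshold 0.05). Keratin results were read from that fit. It was tested on simulated data. The number of arrays limits the precision. Named keratins are those of simple epithelium, the main stratified keratins, those above 8 in a line with a range of at least 4, those with the lowest p in each direction and those outside in AKP 6; genes named in the text beyond these, such as Krt84, Cdh1 and Klf4, were chosen after their values were seen. Members, gene lists, tests and alternatives were chosen with earlier results of these data known.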

Additional observations from a re-analysis of the deposited data

How the results depend on the processing

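The count of keratins called between AKP and AP stayed 0 under every alternative but 2: it was 1, Krt10, without AP 1 (range over single left-out lines 0 to 1) and 1 without AP 1 and AKP 1 together. The filters at the 40th and 60th percentile tested only 15 and 5 keratins. Of 504 refits of 18 named keratins, 493 kept direction and side of the threshold. Signs turned without AP 1 for Krt8 (-0.73), Krt18 (-0.63) and Krt19 (-0.036), without AP 1 and AKP 1 together for Krt8 (-0.48) and Krt18 (-0.32), without AP 2 for Krt7 (0.12) and Krt14 (0.87), without AP 3 for Krt7 (0.65), and with the replicate block for Krt2 (-0.32). Leaving out 1 line, the differences ran from -3.37 to 0.65 for Krt7, -0.73 to 4.72 for Krt8, -1.85 to 0.87 for Krt14, -0.63 to 4.99 for Krt18 and -0.036 to 4.22 for Krt19. Replicate numbers 1 to 3 are shared by AP and AKP lines, and their deviations correlated at 0.46, -0.04 and -0.06. Each deviation is from the mean of its group, and the AP mean is of 3 lines and holds AP 1. The low correlations for numbers 2 and 3 therefore cannot show whether lines of the same number share anything. AP 1 and AKP 1 deviated in part alike, and what they share was not tested. With the replicate block, limma called 0 of all genes (2043 at an unadjusted p under 0.05), in a fit of fewer lines.

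The count of 345 called genes was 135 with the dimmest probe set per gene, 191 after keeping genes from the 60th percentile up, 153 with array weights, 181 with a Welch statistic, 728 without AKP 1 and AKP 8 together, and 177 (without AP 3) to 584 (without AP 2) leaving out 1 line, with 540 without AKP 8 and 216 without AKP 6. The cause was not tested. Centring arrays on their median took the all-gene median of the log2 difference from 0.012 to 0.12 and the calls to 256 higher and 161 lower, from 144 and 201, and called 0 keratins. The 2 called partner genes became 0 with median centring, quantile normalization, the dimmest probe set, a Welch statistic, sex as a covariate or the replicate block. A filter at the 40th or 60th percentile took both genes out of the test. The count was 1 with mean probe sets, an intensity trend or array weights, and 0 to 4 leaving out 1 line (4 without AP 1). Keratins above 7 instead of 8 numbered 1 in AP 1 and 8 in AKP 12; above 10 there were 4 in AP 2, AKP 5, AKP 7 and AKP 9 and 2 in AKP 1 and AKP 8. The count for AKP 6 stayed 1 and that by sex label 0 under all alternatives run. With the presence of a pair number as a covariate, limma called 440 genes and 0 of the 48 keratins between AKP and AP.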
